A study of Mus musculus with 4 samples.

Results

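The Src family kinases described here were 7 of the 40091 genes listed over 4 single-nucleus RNA sequencing (snRNA-seq) libraries of mouse thalamus, namely Fgr, Lyn, Fyn, Src, Yes1, Lck and Blk. They were taken by gene symbol, as a family around Fgr. The group was selected on earlier readings of these same libraries, and the cell types were defined from measured marker genes. Which values of Fgr led to its choice is not recorded, so the COL and NS values of Fgr are given as a description without a test, and the other 6 members were tested.

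All 4 libraries came from wild-type C57BL6 mice of about 7-8 weeks, and each pooled tissue of 3 mice taken 7 days after an injection into the right VPM and VPL, the thalamic nuclei that relay touch and pain from the body and face. The 2 NS libraries (C1 and C2 in the labels, here NS replicates 1 and 2) came from mice that received saline. The 2 COL libraries (M1 and M2, here COL replicates 1 and 2) came from mice that received type IV collagenase (Coll IV) at 0.01 U per 10 nl, an enzyme that digests vessel basement membrane and so causes bleeding. Since mice were pooled, the spread between libraries does not give the spread between single mice.

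After the filter the libraries held 5931 to 10422 nuclei and 68723738 to 77546840 UMIs (unique molecular identifiers, each counting 1 captured RNA molecule). Depth per nucleus differed between the groups, with medians of 6489 and 4649 UMIs in NS and 8664 and 8691 in COL, so levels are given as CPM, the UMIs of a gene relative to all UMIs of a cell type in a library, scaled to a fixed total. Pairs of libraries shared 8 to 31 barcodes. Nuclei were named by clusters from marker genes, without the members among the clustering genes. Microglia of the 2 groups lay in different clusters, the NS nuclei in a cluster led by Gm10790 and Siglech and the COL nuclei in a cluster led by Ly86 and Siglech and a dividing cluster with Top2a and Mki67. Oligodendrocytes and astrocytes were split in the same way, and the 2 largest neuron clusters held 2250 and 2710 NS with 6 and 56 COL nuclei, and 62 and 105 NS with 988 and 1728 COL nuclei. Of the 2 clusters of OPC (oligodendrocyte precursors), 1 held almost only NS nuclei and the other nuclei of both groups. Fgr was among the 10 leading genes of the macrophage cluster, and Lck among those of the cluster of T and NK cells.

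Src family kinases are membrane-anchored tyrosine kinases built from SH3, SH2 and kinase domains. Csk holds them inactive by phosphorylating a tyrosine in their tail, and phosphatases such as CD45 (Ptprc) release them. Fgr and Lyn are known as myeloid members, which act below integrins and Fc receptors and upstream of Syk. Lck starts signalling at the T cell receptor, Blk belongs to B cells, and Src, Fyn and Yes1 are expressed in most tissues. Fyn in addition is needed in oligodendrocytes for myelination and phosphorylates NMDA receptors in neurons.

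Positions are those of the GRCm38 annotation (GENCODE M21), the build named mm10 in the submitters' processing notes. Fgr (ENSMUSG00000028874) covers bases 132974095 to 133001910 of chromosome 4 on the plus strand and overlaps no other annotated gene. Lyn (ENSMUSG00000042228) covers 135008 bases of the same chromosome from base 3678115, Fyn (ENSMUSG00000019843) 196527 bases of chromosome 10 from base 39368855, and Src (ENSMUSG00000027646) 53419 bases of chromosome 2 from base 157418444. Yes1 (ENSMUSG00000014932) covers 75887 bases of chromosome 5 from base 32611171, Lck (ENSMUSG00000000409) 25298 bases of the minus strand of chromosome 4 from base 129548344, and Blk (ENSMUSG00000014453) 44202 bases of chromosome 14 from base 63372836. Lyn and Fyn are overlapped by 4 and 3 genes on the opposite strand, Yes1 by 3, of which Gm43694 lies on its own strand, and Lck by Mir8119 on its own strand, so that reads of these overlaps may be shared.

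The promoters of Fgr and Lck are shown because these 2 members were each among the leading genes of a cell cluster, the macrophages and the T and NK cells. The table of RefSeq promoters (GRCm38.p6) held 5 of the 7 members. Each line gives the 250 bases before a start, 5′ to 3′ on the gene's own strand. Capitals mark GAGGAA, the core bound by PU.1, and GGAAGT, a core of the wider ETS family, searched on both strands. Lck has 2 starts.

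Fgr, chr4:132973845-132974094, plus strand: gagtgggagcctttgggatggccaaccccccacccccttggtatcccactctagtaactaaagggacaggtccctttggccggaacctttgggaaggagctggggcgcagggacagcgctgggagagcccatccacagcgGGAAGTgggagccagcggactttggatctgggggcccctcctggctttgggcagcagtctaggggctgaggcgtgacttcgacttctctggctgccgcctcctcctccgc
Lck, first start, chr4:129573642-129573891, minus strand: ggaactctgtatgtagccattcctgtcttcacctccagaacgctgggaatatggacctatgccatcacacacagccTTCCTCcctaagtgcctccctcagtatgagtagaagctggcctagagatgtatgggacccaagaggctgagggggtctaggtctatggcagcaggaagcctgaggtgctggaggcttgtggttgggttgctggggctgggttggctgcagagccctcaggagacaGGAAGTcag
Lck, second start, chr4:129558373-129558622, minus strand: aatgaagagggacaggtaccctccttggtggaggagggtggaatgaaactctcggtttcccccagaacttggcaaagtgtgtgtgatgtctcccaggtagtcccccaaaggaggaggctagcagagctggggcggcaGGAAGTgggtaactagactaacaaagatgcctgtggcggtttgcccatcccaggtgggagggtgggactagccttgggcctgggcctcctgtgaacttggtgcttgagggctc

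All 3 stretches held GGAAGT, which 19.7% of the 32851 promoters in the table also held, and the first start of Lck held GAGGAA, as did 23.3% of all. A 10-base NF-kB form, found in 1.41% of all promoters, and TGANTCA, an AP-1 form found in 6.75%, were not among their letters. A match is a description and not a bound site.

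Fgr was the member with the largest difference between the groups over all kept nuclei. The NS libraries held 45 and 41 UMIs of Fgr and the COL libraries 610 and 1220, or 0.58 and 0.60 CPM against 8.78 and 17.6 CPM. The 2 groups did not overlap, and COL replicate 2 had the highest level. With 2 libraries a group, values often stand apart without a real difference. The share of all genes that did so was not counted, here or below. The fitted difference was 4.6 on the log2 scale, and 4.07 to 4.93 with 1 library left out. In sums over all nuclei alone, more cells of a type and more RNA per cell cannot be told apart, and the values by cell type follow.

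Macrophages held most of the Fgr UMIs of the COL libraries, 74.8% in replicate 1 and 67.3% in replicate 2. They numbered 319 and 472 nuclei there and 2 and 4 in NS. Each COL macrophage carried on average 1.43 and 1.74 UMIs of Fgr, with levels of 302 and 348 CPM. The 6 NS nuclei of this cluster held 5 and 2 UMIs, too few for a level. In NS, neurons held 19 and 13 UMIs of Fgr (42.2% and 31.7%) and microglia 5 and 17 (11.1% and 41.5%). With the macrophage cluster left out, the kept nuclei held 0.52 and 0.57 CPM of Fgr in NS and 2.27 and 5.94 CPM in COL.

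**Figure D1:**
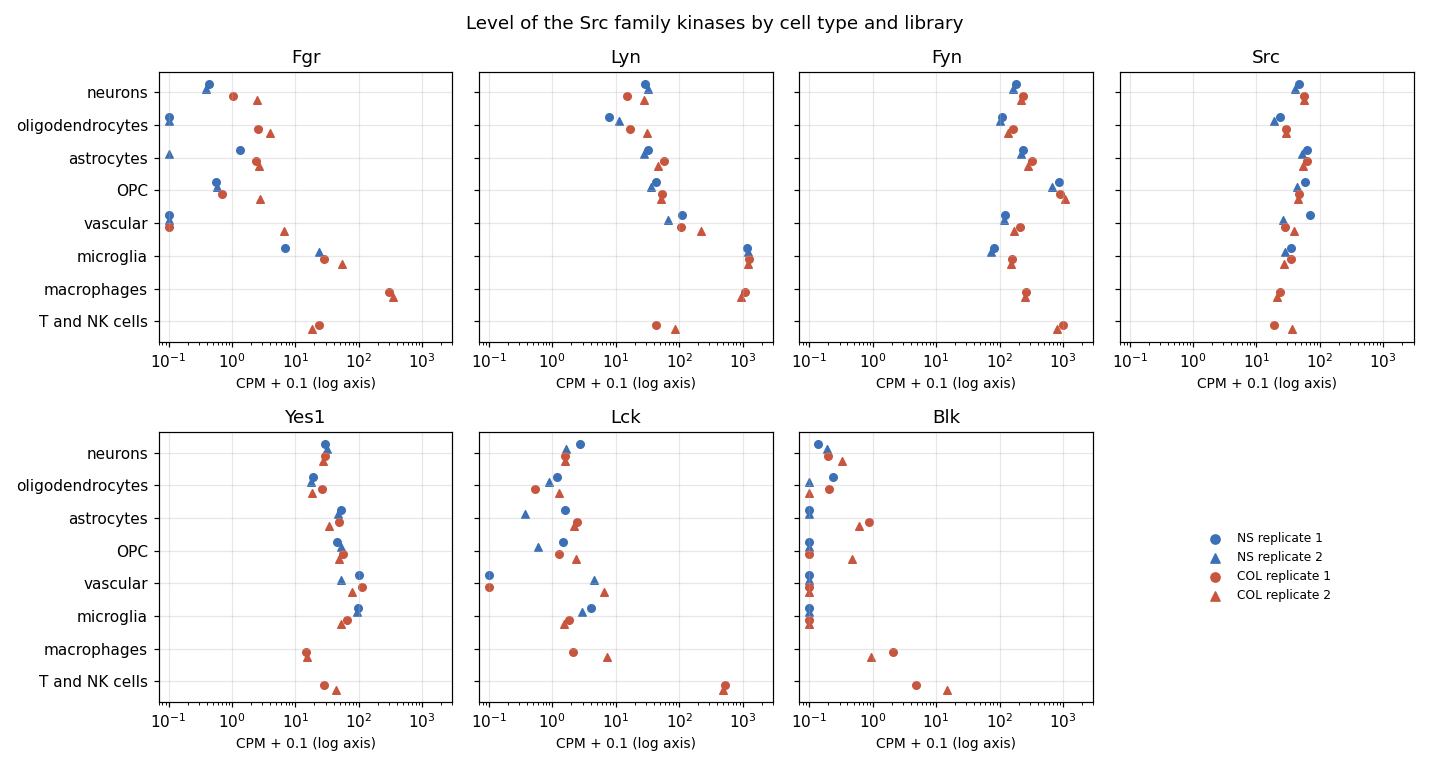
Level of each kinase (CPM plus 0.1, log axis) in 8 cell types, 1 panel a gene and 1 point a library with at least 20 nuclei of the type (blue NS, red COL, circles replicate 1, triangles replicate 2; points at the left edge are 0). Fgr lay at 302 and 348 CPM in COL macrophages, Lyn near 1000 CPM or above in microglia and macrophages, and Lck at 527 and 499 CPM in T and NK cells.

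Fgr was low in microglia, the resident macrophages of the brain. NS microglia held 5 and 17 UMIs (6.73 and 23.8 CPM), and COL microglia held 48 and 155 UMIs (27.7 and 54.7 CPM). The groups did not overlap, but NS replicate 2 lay closer to COL replicate 1 than to NS replicate 1. The fitted difference was 1.51 on the log2 scale, 0.84 without NS replicate 1, 0.94 without COL replicate 2 and 2.72 without NS replicate 2. The clotting factor gene F13a1, a macrophage marker, stood at 1.35, 36.3, 52.4 and 77.2 CPM in the same 4 microglia sums, given for the 2 NS libraries and then the 2 COL libraries. The 11 macrophage markers together had 154, 257, 505 and 542 CPM there, against 2494 and 2466 CPM in COL macrophages, with 6, 8, 9 and 9 markers found. Their part in the Fgr values of microglia was not tested.

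Shares of nuclei were also compared at equal depth. With each nucleus thinned to 1000 UMIs, Fgr was found in 22.6% of the macrophages of COL replicate 1 (exact Clopper-Pearson 95% interval 18.1% to 27.6%) and in 25.7% of those of replicate 2 (21.8% to 29.9%). In COL microglia the shares were 2.43% (1.12% to 4.57%) and 4.01% (2.53% to 6.01%), and in NS microglia 0.63% (0.076% to 2.25%) and 2.05% (0.83% to 4.18%). Without thinning they were 47.6% and 53.8% of COL macrophages, at median depths of 4257 and 4464.5 UMIs, and 9.41% and 17.2% of COL microglia, at 4054 and 4327.5 UMIs. Neurons, given for comparison, had 0.17% and 0.34% at equal depth in COL, and 1.57% and 3.72% without thinning at median depths of 15074 and 14937 UMIs. T and NK cells of COL had 3.57% and 2.44% at equal depth, from 2 nuclei in each library. The shares of macrophages stood above those of all other types. These intervals cover counting error within a library only and compare no groups.

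**Figure D2:**
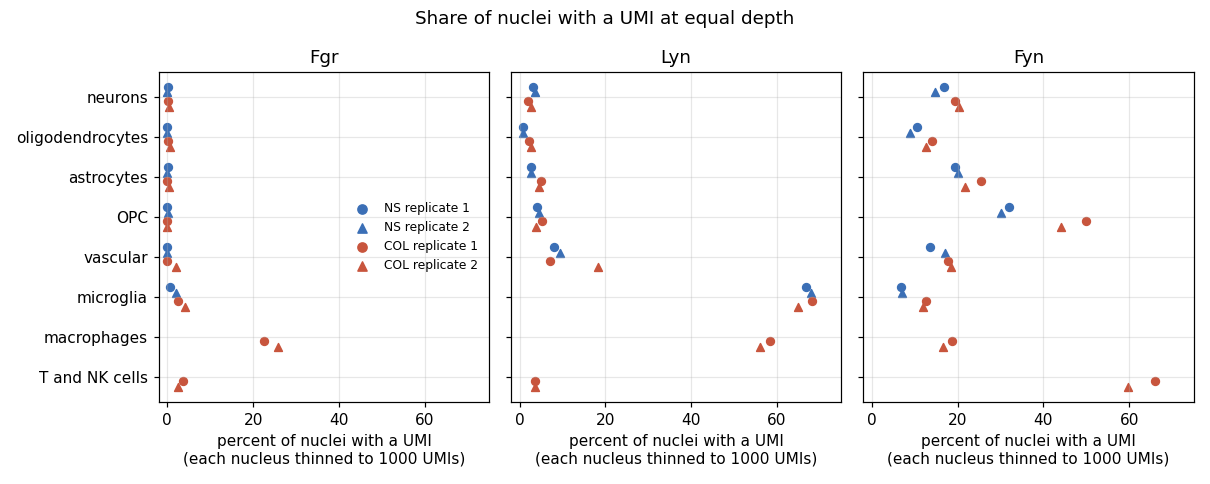
Percent of nuclei with at least 1 UMI of Fgr, Lyn or Fyn after each nucleus was thinned to 1000 UMIs (horizontal axis), by cell type and library (blue NS, red COL, circles replicate 1, triangles replicate 2). For Fgr the macrophages at 22.6% and 25.7% stand apart from all other types, while for Lyn microglia of all 4 libraries lie between 65.0% and 68.1%.

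Outside the immune cells Fgr was near 0. Over 5639 NS oligodendrocytes, the myelin-forming cells, no UMI of Fgr was found, which allows a share of nuclei with a UMI of up to 0.053% at this depth and sets no limit on the share that expresses the gene. COL oligodendrocytes held 23 and 40 UMIs (2.43 and 3.94 CPM). Summed over both COL libraries this was 3.21 CPM, 19.9-fold the level that 3 UMIs over the NS group would give (0.161 CPM). Neurons had 0.34 and 0.28 CPM in NS and 0.95 and 2.40 CPM in COL, and astrocytes 0 to 6 UMIs in any library. Macrophage markers moved with these values: their summed level in oligodendrocytes was 1.76 and 2.40 CPM in NS and 21.8 and 38.5 CPM in COL, and in neurons 7.84 and 8.13 CPM against 14.3 and 27.3 CPM. Of the 11, Cd209f was at 0 in the oligodendrocytes of all 4 libraries and Lyve1 at 0 in those of NS. As a share of the macrophage marker sum, Fgr amounted to 11.2% and 10.2% in COL oligodendrocytes, 6.61% and 8.78% in COL neurons, and 12.1% and 14.1% in COL macrophages. The part of these marker genes' source cells in the Fgr values was not tested.

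**Figure D3:**
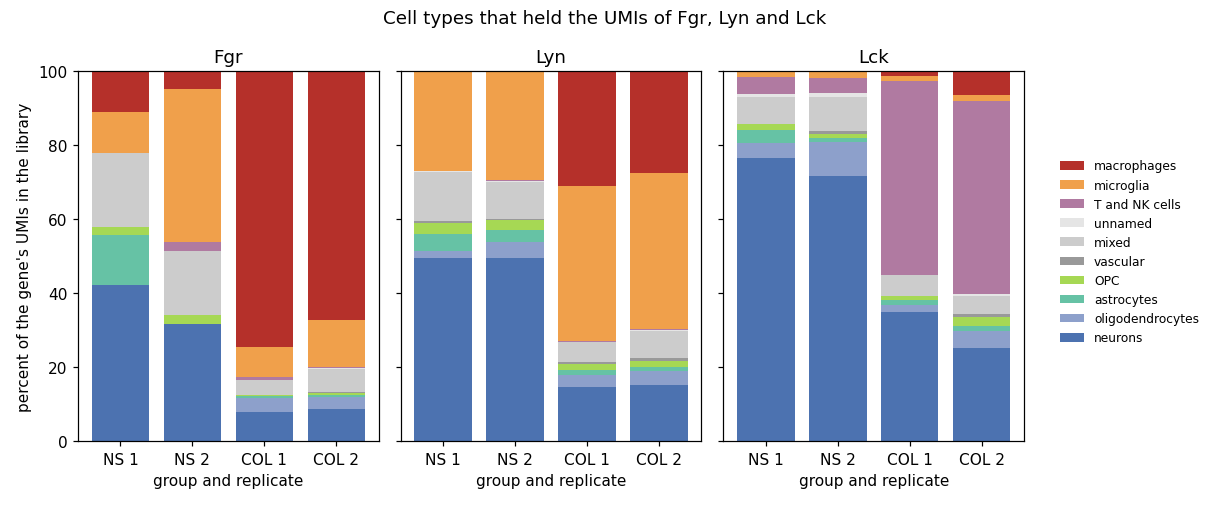
Percent of all UMIs of Fgr, Lyn and Lck in a library (vertical axis) by the cell type that held them, 1 bar a library. Macrophages (dark red) held 74.8% and 67.3% of Fgr UMIs in the COL bars, and T and NK cells (purple) 52.4% and 52.3% of Lck UMIs there.

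Lyn, a kinase that both activates and restrains myeloid receptors, showed no detectable difference between the groups in microglia. The values were 1189 and 1229 CPM in NS and 1266 and 1216 CPM in COL. The groups overlapped, with a log2 difference of 0.09 (SE 0.14, edgeR adjusted p = 0.695). COL macrophages had 1082 and 954 CPM, below COL microglia, whereas for Fgr macrophages lay above microglia. At equal depth Lyn was found in 66.8% and 68.0% of NS microglia, 68.1% and 65.0% of COL microglia and 58.3% and 56.0% of COL macrophages.

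Over all nuclei Lyn was higher in COL. It had 42 and 43.7 CPM in NS and 75.4 and 117 CPM in COL, without overlap (log2 difference 1.30, SE 0.18, edgeR adjusted p = 0.0141). It was the 1 of the 6 other members called there, where 5.02% of 25570 genes were called higher and 4.43% lower. Without the macrophage cluster the difference was 0.85 (adjusted p = 0.0539). Microglia made up 3.32% and 3.29% of the nuclei in NS and 6.27% and 8.75% in COL, and macrophages 0.021% and 0.038% against 5.38% and 7.53%. With both types left out Lyn had 30.9 and 31.1 CPM in NS and 21.3 and 38.3 CPM in COL, which overlapped.

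Lyn was also higher in COL in the 2 main types of macroglia. In oligodendrocytes it went from 7.74 and 11.2 CPM in NS to 16.7 and 30.5 CPM in COL (log2 difference 1.36, SE 0.31, edgeR adjusted p = 0.0187). In astrocytes it went from 32.5 and 28.1 CPM to 56.8 and 45.8 CPM (0.78, SE 0.21, adjusted p = 0.0293). Neither pair of groups overlapped. In oligodendrocytes the call was lost without NS replicate 1 (adjusted p = 0.0576), and the difference was 0.88 without COL replicate 2. In astrocytes it was lost with DESeq2 (adjusted p = 0.182), at a finer clustering resolution (0.0619), and without NS replicate 1, NS replicate 2 or COL replicate 1 (0.0848, 0.123 and 0.133). Relative to the summed macrophage and microglia markers, Lyn amounted to 5.18% and 5.74% in NS oligodendrocytes and 10.8% and 11.6% in COL, against 33.1% and 26.4% in COL macrophages. Macrophage markers in astrocytes summed to 7.75 and 13.5 CPM in NS and 28.8 and 55.1 CPM in COL. The part of these markers' source cells in the Lyn values was not tested.

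Neurons held a further share of the Lyn UMIs. Neuronal Lyn was 28.7 and 32.5 CPM in NS and 15.2 and 27.6 CPM in COL, and the COL value of replicate 2 came close to NS (log2 difference -0.38, SE 0.25, edgeR adjusted p = 0.344). The difference was -0.10 without COL replicate 1, -0.81 without COL replicate 2 and -0.23 without NS replicate 2. The largest neuron cluster, almost only of NS nuclei, had 34.1 and 37.3 CPM in NS. The cluster with most COL nuclei had 12.6 and 23.8 CPM in NS and 16.0 and 28.9 CPM in COL. The groups also overlapped in the clusters led by Lef1 and Necab1. In those led by 6530403H02Rik and Kcnmb2 both COL values lay below both NS values. The part of the unequally filled clusters in the sums was not tested. No gene of 23743 was called in neurons (0% in both directions by edgeR, with 6674 at an unadjusted p under 0.05; DESeq2 called 773 higher and 1702 lower), and none of the members was. Relative to the summed macrophage and microglia markers, Lyn amounted to 27.6% and 23.5% in NS neurons and 16.1% and 16.2% in COL neurons.

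**Figure D4:**
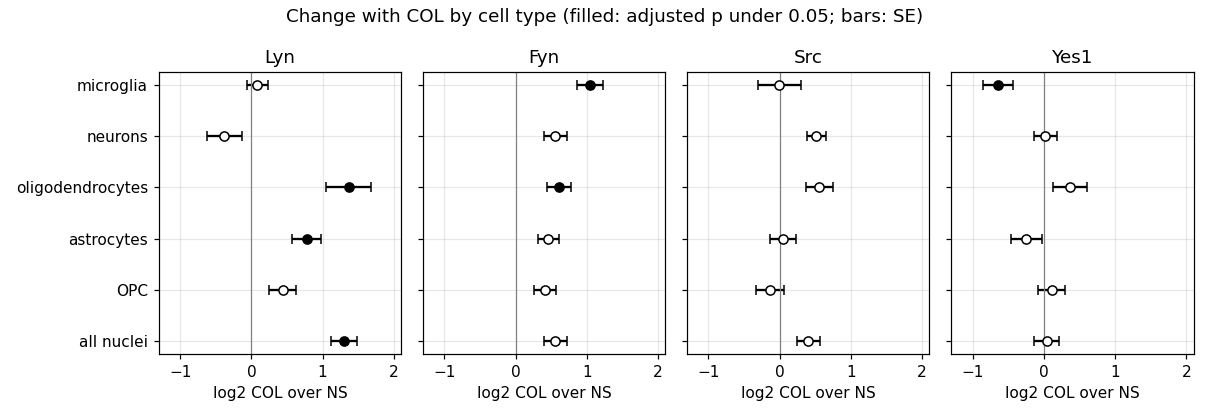
Log2 difference of COL over NS (horizontal axis, edgeR, bars 1 SE) for Lyn, Fyn, Src and Yes1 in 5 cell types and over all nuclei (filled points passed an adjusted p of 0.05). Fyn lies to the right of 0 in each row, and Lyn ranges from -0.38 in neurons to 1.36 in oligodendrocytes. Within the OPC cluster led by Vcan, Fyn was lower in COL.

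Fyn, which signals in synapses, axons and the oligodendrocyte lineage, had the lowest adjusted p of the tested members within microglia. Microglial Fyn was 82.1 and 72.7 CPM in NS and 158 and 152 CPM in COL. The groups stood well apart, with a log2 difference of 1.05 (SE 0.18, edgeR adjusted p = 0.00122), and the call held under each alternative tried. Of the 6 other members Lyn, Fyn, Src and Yes1 passed the filter on low counts in microglia. Fyn was called higher and Yes1 lower, where 14.3% of 12102 genes were called higher and 14.4% lower. Fyn was higher in the dividing cluster of COL microglia (197 and 206 CPM) than in the main COL cluster (141 and 122 CPM), and both lay above the NS cluster (81.4 and 71.4 CPM). COL macrophages had 264 and 256 CPM. At equal depth Fyn was found in 6.90% and 7.04% of NS microglia and 12.7% and 12% of COL microglia. Neuron markers summed to 1682 and 1383 CPM in NS microglia and 1851 and 1644 CPM in COL microglia, which overlapped, with 10 of 10 markers found in every library. Macrophage markers moved with Fyn in the same sums, with 154 and 257 CPM in NS and 505 and 542 CPM in COL, and the part of their source cells in the Fyn values was not tested.

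Fyn differed in the same direction in the sums of the other types, with smaller values. In oligodendrocytes it was 109 and 102 CPM in NS and 165 and 137 CPM in COL (log2 difference 0.61, SE 0.17, edgeR adjusted p = 0.0364), and this call was lost without either NS replicate (adjusted p = 0.225 and 0.214). Fyn and Lyn were the members called in oligodendrocytes, where all but Blk passed the filter and 10.1% of the genes were called higher and 12.4% lower. In neurons Fyn was 184 and 166 CPM in NS and 237 and 218 CPM in COL (0.56, SE 0.16, adjusted p = 0.119). In astrocytes it was 236 and 220 CPM against 328 and 286 CPM (0.46, SE 0.15, adjusted p = 0.0613), and Lyn was the member called there, where Lck and Blk did not pass the filter, beside 7.56% of genes higher and 8.71% lower. None of these pairs of groups overlapped, which is common with 2 libraries a group and was not counted over all genes. Only the values in microglia and oligodendrocytes passed the test with the main settings. Under alternative settings Fyn also passed, in 1 for neurons, 3 for astrocytes and 4 for OPC. Over all nuclei Fyn was 199 and 173 CPM in NS and 248 and 244 CPM in COL, and passed in 3 alternatives alone.

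OPC and T and NK cells had the highest Fyn. OPC had 858 and 667 CPM in NS and 909 and 1078 CPM in COL (log2 difference 0.41, SE 0.16, adjusted p = 0.0899), and T and NK cells of COL had 992 and 797 CPM. No member was called in OPC, where Lck and Blk did not pass the filter and 8.03% of the genes were called higher and 9.76% lower. Within OPC the level followed the cluster. The cluster that held 307 and 320 NS nuclei, led by Pdgfra, had 281 and 285 CPM of Fyn, whereas the cluster led by Vcan had 1966 and 1371 CPM in its 93 and 111 NS nuclei and 911 and 1091 CPM in its 208 and 296 COL nuclei. Markers of committed precursors, which stand on the way to oligodendrocytes, summed to 873 and 840 CPM in the first cluster and to 5790 and 4527 CPM (NS) and 2318 and 2807 CPM (COL) in the second. Fyn was thus highest where these markers were highest. Within the second cluster both COL values of Fyn lay below both NS values, the reverse of the OPC sums. Of the nuclei in the second cluster 12.7% were called doublets, against 0.5% in the first. The share of nuclei in each cluster differed between NS and COL, and its part in the Fyn values of OPC was not tested.

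**Figure D5:**
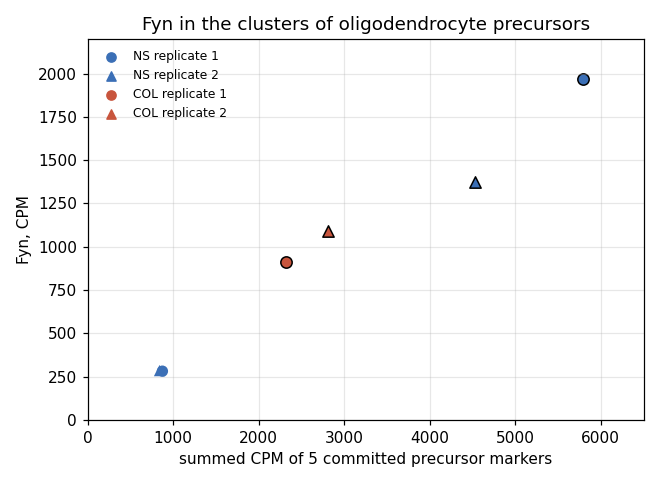
Fyn (CPM, vertical axis) against the summed CPM of 5 committed precursor markers (horizontal axis) in the 2 OPC clusters by library (blue NS, red COL, circles replicate 1, triangles replicate 2; outlined points are the cluster led by Vcan). Fyn lay at 281 and 285 CPM where the markers were lowest and at 1966 CPM where they were highest.

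In COL the other types followed the OPC and T and NK cells in the order astrocytes (328 and 286 CPM), macrophages (264 and 256), neurons (237 and 218), the vascular cluster (210 and 170), oligodendrocytes (165 and 137) and microglia (158 and 152). Macrophages did not overlap with the types beside them, while oligodendrocytes and microglia did. Fyn thus spanned a narrower range over cell types than Fgr, Lyn or Lck. The vascular cluster, led by Flt1 and with pericyte genes, rested on 12 to 52 UMIs of Fyn a library.

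Yes1, the member closest to Src, had a lower level in COL microglia. It was 95.6 and 93.7 CPM in NS and 65.7 and 52.5 CPM in COL, without overlap (log2 difference -0.64, SE 0.21, edgeR adjusted p = 0.0400). This call did not hold with DESeq2 (adjusted p = 0.300), without the filter on low counts (0.132), with nuclei assigned by single marker scores (0.295), without either NS replicate or COL replicate 2, and without the dividing cluster (0.184). At equal depth Yes1 was found in 5.96% and 7.63% of NS microglia and 6.22% and 7.30% of COL microglia, which overlapped. In that dividing cluster Yes1 stood at 45.9 and 38.8 CPM, below the main COL cluster at 74.5 and 60.0 CPM. COL macrophages had 14.6 and 15.3 CPM. In the microglia sums macrophage markers had 154 and 257 CPM in NS and 505 and 542 CPM in COL. Microglia markers there had 6683 and 6409 CPM in NS and 3811 and 3812 CPM in COL. The part of either in the Yes1 values was not tested. In NS the vascular cluster had 101 and 52.6 CPM of Yes1, astrocytes 51.7 and 47.0, OPC 46.0 and 52.9, neurons 29.5 and 31.9 and oligodendrocytes 19.1 and 17.3. OPC overlapped with astrocytes and the vascular cluster, while neurons and oligodendrocytes each stood apart. The adjusted p was 0.297 or above in each of the 4 other types tested.

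Src, a kinase of adhesion sites and synapses, did not pass the test in any type with all 4 libraries and no block. In microglia it was 35.0 and 28.0 CPM in NS and 34.6 and 26.8 CPM in COL (log2 difference -0.01, SE 0.30, edgeR adjusted p = 0.989), a sign that turned under several settings. In oligodendrocytes it was 23.5 and 18.7 CPM in NS and 29.1 and 29.2 CPM in COL (0.56, SE 0.19, adjusted p = 0.0635, and 0.0297 without COL replicate 2). In neurons it was 46.3 and 40.9 CPM in NS and 55.3 and 55.4 CPM in COL (0.51, SE 0.13, adjusted p = 0.112), with a log2 difference of 0.40 to 0.55 with 1 library left out. Neurons varied more among themselves. A cluster led by Lef1 and Slit3 had 72.8 and 62.8 CPM of Src in NS and 82.7 and 112 CPM in COL, and a cluster led by Necab1 had 72.8 and 60.3 CPM against 58.5 and 78.3 CPM. The other neuron clusters, where a library had at least 20 nuclei, lay between 20.2 and 53.7 CPM, below these 2 clusters in every library. The first took 252 and 627 NS and 691 and 328 COL nuclei, of which 13.9% were called doublets, and the second 307 and 170 NS and 705 and 225 COL nuclei. Among neuron clusters with at least 20 nuclei in every library, only the first had both COL values above both NS values. The cluster with most COL nuclei had 43.2 and 30.7 CPM in NS and 37.0 and 41.8 CPM in COL. The groups filled the clusters unequally, and the part of this in the neuron sums of Src was not tested.

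Lck, which starts T cell receptor signalling, had its highest level in T and NK cells. The 56 and 82 nuclei of this cluster in COL had 111 and 136 UMIs (527 and 499 CPM), and 87.5% and 67.1% of them carried a UMI. The 9 and 5 NS nuclei held 9 and 4 UMIs. Neurons had 149 and 71 UMIs in NS and 74 and 65 in COL, or 2.65 and 1.55 CPM against 1.46 and 1.47 CPM, and macrophages 3 and 17 UMIs in COL. Over all nuclei Lck was 2.51 and 1.44 CPM in NS and 3.05 and 3.74 CPM in COL (log2 difference 0.93, SE 0.32, edgeR adjusted p = 0.100; DESeq2 0.0494). Fgr and Lyn had 5 UMIs each and 9 and 23 UMIs in the T and NK cells of COL.

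Blk was hardly found. The libraries held 9, 4, 11 and 18 UMIs in all, and none was in the 1584 microglia, which allows a share of nuclei with a UMI of up to 0.189% at this depth, again no limit on expression. Neurons held 2, 4, 5 and 10 of these UMIs, T and NK cells 6, 0, 1 and 4, and macrophages 0, 0, 3 and 2. B cell markers in the cluster of T and NK cells summed to 14.2 and 176 CPM in COL. Changes of Blk within a cell type could not be tested at this depth.

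The difference of the COL effect between microglia and each other type was tested for the members other than Fgr that passed the filter, with the library as a block. For Lyn the effect in microglia was lower than in oligodendrocytes by 1.17 on the log2 scale (SE 0.23, edgeR adjusted p = 0.000567), beside 8.2% of genes called in either direction. It was higher than in neurons by 0.53 (SE 0.18, adjusted p = 0.0321), where 9.55% of the genes were called. Neuron clusters, which the groups filled unequally, were not taken apart in this test. The effect on Yes1 in microglia lay below that in oligodendrocytes (difference -0.88, adjusted p = 0.0108) and in OPC (-0.86, adjusted p = 0.00957, with 9.72% of genes called). The effect on Fyn in microglia exceeded that in astrocytes by 0.71 (adjusted p = 0.0284, with 6.92% of genes called), whereas the differences from neurons, oligodendrocytes and OPC did not pass (adjusted p = 0.120, 0.0840 and 0.103). Under other settings some of these passed: that from neurons with RLE normalization (0.0364), without the filter on low counts (0.00352) and without COL replicate 1 (0.00324), that from oligodendrocytes without COL replicate 1 (0.0203), and that from OPC without the filter (0.000484). The difference of Lyn from astrocytes also passed with RLE normalization (-0.70, adjusted p = 0.0437). Of the 5 called differences, that of Lyn from oligodendrocytes held under each alternative tried. The other 4 were lost with DESeq2 (adjusted p = 0.250 for Lyn and neurons, 0.213 and 0.488 for Yes1, and 0.453 for Fyn), without NS replicate 1 (0.0627 to 0.244) and under further alternatives.

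Genes whose levels followed a member most closely were found over 28 sums of cell type and library, among 13838 genes with at least 20 CPM in any sum. Pearson's r of the log2 levels describes these sums, which share libraries and depth, and carries no test. For Fgr the first genes were Cd244a (r = 0.956), a receptor of NK and myeloid cells, Ms4a6d (0.943) and Cd48 (0.942), the ligand of Cd244a. For Lyn they were Cmklr1 (0.954), the chemerin receptor, Ifngr2 (0.945) and Gm5086 (0.942), and for Lck Il18r1 (0.963), Gm4759 (0.952) and Ltb (0.949), the latter lymphotoxin beta. The first genes were less alike for Fyn (Arhgef3, 0.866; Scfd2, 0.825; Xylt1, 0.821), Src (Gm38286, 0.873; Dnah7c, 0.870; Gpm6a, 0.849) and Yes1 (Arhgef40, 0.865; Ston1, 0.841; Ptprm, 0.831).

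Of 14 listed kinases, phosphatases and ligases that set Src family activity, 12 could be tested in microglia, 2 were higher and 1 lower in COL, near the 14.3% higher and 14.4% lower over all genes, with a median log2 difference of 0.01 beside 0.00 over all genes. Ptpn1 (0.71, SE 0.15, edgeR adjusted p = 0.00406) and Ptpra (0.65, SE 0.15, adjusted p = 0.00699), phosphatases that remove the inhibitory tail phosphate, were higher. Ptpre, a relative of Ptpra, was lower (-0.58, SE 0.19, adjusted p = 0.0385). Csk and Ptprc did not pass.

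Of 19 receptors and adaptors upstream, 17 were tested in microglia, 3 were higher and 2 lower (median 0.13), also near the 14.3% and 14.4% over all genes. Clec7a, the beta-glucan receptor Dectin-1, rose from 2.69 and 2.80 CPM to 14.4 and 31.4 CPM (log2 difference 3.11, adjusted p = 0.00338). Fcgr2b, the inhibitory Fc receptor, rose from 28.3 and 29.4 CPM to 57.0 and 60.3 CPM (adjusted p = 0.00822), and Fcgr4, an activating one, from 1.35 and 1.40 CPM to 9.22 and 13.4 CPM (adjusted p = 0.00847). In NS microglia Clec7a rested on 2 and 2 UMIs and Fcgr4 on 1 and 1. Both passed the low-count filter through COL, so their fold values are uncertain and their calls carry little weight. COL macrophages had 21.9 and 41.2 CPM of Clec7a, 138 and 103 CPM of Fcgr2b and 17.2 and 23.3 CPM of Fcgr4. Macrophage markers moved with these genes in the microglia sums, as given beside Fyn, and the part of their source cells was not tested. Cd33, an inhibitory receptor for sialic acids, fell by 1.12 (adjusted p = 0.00105), and Cd14, the co-receptor for lipopolysaccharide, fell by 1.60 (adjusted p = 0.0212).

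Of 21 kinases, adaptors and lipid enzymes downstream, 20 were tested in microglia, 6 were higher and 2 lower (median 0.30), beside 14.3% and 14.4% over all genes. Vav3, a guanine nucleotide exchange factor, rose from 82.1 and 62.9 CPM to 279 and 199 CPM (1.76, SE 0.22, adjusted p = 0.000151) and stood at 1136 and 759 CPM in COL macrophages. Lcp2 (the adaptor SLP-76, 0.75, adjusted p = 0.00359), Ptk2b (the kinase Pyk2, 0.68, adjusted p = 0.00537) and Dock2 (0.55, adjusted p = 0.0181) were higher as well. Pik3cg (-0.74, adjusted p = 0.0154) and Elmo1, the partner of Dock proteins (-0.51, adjusted p = 0.0279), were lower. Of 20 NF-kB genes, 18 were tested, and Tnf (2.48, adjusted p = 0.0043) and Nfkbiz (1.06, adjusted p = 0.0137) were higher while none was lower, a count below the shares over all genes. Tnf in microglia stood at 4.04 and 2.80 CPM in NS (3 and 2 UMIs) and 16.7 and 20.8 CPM in COL (29 and 59 UMIs). It passed the low-count filter through COL, so its call carries little weight. COL macrophages had 18.5 and 22.5 CPM of Tnf and 49.7 and 43.7 CPM of Nfkbiz. Macrophage markers moved in the microglia sums, as given beside Fyn, and the part of their source cells was not tested here.

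Of 18 synaptic and axonal partners of Fyn and Src, all were tested in microglia, 7 were higher and 2 lower, beside 14.3% and 14.4% over all genes. The median of 0.51 was the largest of the lists. Dcc (netrin receptor, 1.49, adjusted p = 4.83e-05), Dab1 (reelin adaptor, 1.70, adjusted p = 0.000134), Grin2a (NMDA receptor subunit, 1.27, adjusted p = 0.000617) and Ptk2 (focal adhesion kinase, 0.87, adjusted p = 0.0088) had the lowest adjusted p of the higher genes. Arhgap5, a GTPase-activating protein (-1.09, adjusted p = 0.000603), and Prnp, the prion protein (-1.28, adjusted p = 0.00279), were lower. Dcc, Dab1 and Grin2a are known mainly from neurons. COL macrophages had 479 and 516 CPM of Dcc, 218 and 240 CPM of Dab1 and 220 and 135 CPM of Grin2a, and macrophage markers in the microglia sums were 154 and 257 CPM in NS and 505 and 542 CPM in COL. Neuron markers in the same microglia sums, given beside Fyn and with Grin2a among them, overlapped between the groups. The part of other cells in these values was not tested.

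In the other glia many genes of the upstream and downstream lists were higher in COL. Of the downstream list 15 of 18 tested genes were higher in COL oligodendrocytes, 10 of 16 in astrocytes and 10 of 16 in OPC, beside 10.1%, 7.56% and 8.03% of all genes, with none lower and medians of 2.15, 1.53 and 1.21. Of the upstream receptors 8 of 13, 4 of 7 and 4 of 6 were higher, with none lower. The rest of the 21 downstream genes and 19 receptors did not pass the low-count filter in these glia. A gene can pass this filter through COL alone. A gene with few UMIs in NS was thus tested only if COL held more, and could hardly be called lower. How many genes passed in this way was not counted, so these counts and medians in glia carry little weight. In neurons, where edgeR called no gene at all, the medians were 2.05 for the receptors and 1.19 for the downstream list. Over all nuclei 15 of 19 receptors and 18 of 21 downstream genes were higher, beside 5.02% of all genes. The lists hold genes of blood and microglial cells. Macrophage markers in OPC summed to 1.82 and 3.40 CPM in NS and 21.9 and 33.8 CPM in COL, and those of the other types are given above. Microglia markers overlapped between NS and COL in oligodendrocytes (148 and 193, 133 and 226 CPM) and neurons (96.1 and 130, 79.8 and 143). They also overlapped in astrocytes (141 and 202, 125 and 249) and OPC (125 and 175, 161 and 195). In microglia they fell from 6683 and 6409 CPM to 3811 and 3812 CPM. The part of the source cells of either marker list in these values was not tested.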

How the data were processed

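Nuclei were isolated in citric acid from thalamus, and the authors deposited raw UMI counts per gene and nucleus for 4 libraries, made with Cell Ranger 1.2.0 on mm10 per the processing notes. Whether intronic reads were counted is not given in the sources used here. Here nuclei with over 50 genes and under 5% mitochondrial UMIs were kept (5931 to 10422 a library) and clustered with Seurat 5.3.0 at resolution 0.8, without the members among the variable genes. Clusters were named from marker lists by a rule written after the clusters were seen. Doublets were called with Scrublet in scanpy and removed only in an alternative. UMIs were summed by library and cell type and tested with edgeR 4.0.16 (quasi-likelihood, TMM, filterByExpr), with Benjamini-Hochberg adjustment over all tested genes and a threshold of 0.05. DESeq2 1.42.0 was an alternative, and the test was checked on simulated data. The members and lists were chosen with earlier results of these data known. All members were named, with up to 4 called genes per pathway list and direction in microglia by adjusted p, and the 3 genes most like each member. P-values measure the spread between 2 pools of mice a group. Protein sequences were not used here, and results on some items are not reported here.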

Additional observations from a re-analysis of the deposited data

Results flagged for a closer look

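The effect of COL, as a log2 difference from NS, was compared between microglia and each other cell type in a model with the library as a block, and 5 differences passed an adjusted p of 0.05 by edgeR. Against neurons, the effect in microglia was higher by 0.53 for Lyn. Microglial Lyn had 1189 and 1229 CPM in NS and 1266 and 1216 CPM in COL, and neuronal Lyn 28.7 and 32.5 CPM against 15.2 and 27.6 CPM. Neuronal Lyn differed between neuron clusters, which the groups filled unequally, and the part of this was not tested. Against oligodendrocytes, the difference of effects was -1.17 for Lyn and -0.88 for Yes1. Against astrocytes it was 0.71 for Fyn, and against OPC it was -0.86 for Yes1. Leaving out 1 library at a time moved the value for Lyn and oligodendrocytes between -1.56 and -0.69 and that for Lyn and neurons between 0.42 and 0.92. Summed macrophage markers had higher values in both COL libraries than in both NS libraries in microglia (154 and 257 CPM in NS, 505 and 542 CPM in COL) and in the neurons, oligodendrocytes, astrocytes and OPC compared here, and their part in these differences was not tested. Microglia markers in microglia summed to 6683 and 6409 CPM in NS and 3811 and 3812 CPM in COL, and their part was not tested either.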

How the results depend on the processing

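Of the 6 members other than Fgr, the number called was 2 in microglia, 0 in neurons, 2 in oligodendrocytes, 1 in astrocytes, 0 in OPC and 1 over all nuclei, with 5 differences between types. Lck and Blk did not pass the filter in microglia, astrocytes and OPC. Over all genes 14.3% were higher and 14.4% lower in microglia, 10.1% and 12.4% in oligodendrocytes, 7.56% and 8.71% in astrocytes, and 5.02% and 4.43% over all nuclei. The counts under other settings below are given without such shares and describe the settings only. In microglia it was 1 with DESeq2, without the filter on low counts, with single marker scores and, chosen after seeing the data, without the dividing cluster. In astrocytes it was 0 with DESeq2 and 2 at resolution 0.4. In OPC it was 1 without the filter, at resolution 0.4 and with marker scores. Over all nuclei it was 3 with DESeq2, 3 without the filter and 0 without macrophages, also chosen after seeing the data. Differences between types numbered 1 with DESeq2, 6 with RLE normalization, 6 without the filter and 4 with doublets removed. Leaving out 1 library at a time gave 1 to 2 in microglia, 0 to 3 in neurons (3 without COL replicate 2), 0 to 4 in oligodendrocytes, 0 to 2 in astrocytes, 0 to 1 in OPC, 1 to 2 over all nuclei and 1 to 5 differences between types. The mean share of COL macrophages with Fgr was 35.6% at 2000 UMIs and 50.7% without thinning, that of COL microglia 6.58% and 13.3%, and that of NS microglia 2.52% and 2.82%. At 2000 UMIs 122 of 321 and 173 of 343 NS microglia were too shallow and left out, against 7 nuclei in each COL library.

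Values near 0 in microglia changed sign. Lyn was -0.023 with macrophages included. Src was 0.071 with DESeq2, 0.0054 with RLE normalization, 0.10 without the filter, 0.0036 with doublets removed, 0.22 without the dividing cluster and -0.19 to 0.21 with 1 library left out. The cause was not tested. There were 300 alternatives of 25 single values, among them 2 Fgr values without a test. Of these alternatives, 33 lost a call, 18 gained a call and 9 changed sign. A further 6, all of Fgr, kept their sign but moved in size.

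The 2 libraries of a group share a replicate number with the other group, but nothing in the labels pairs them, and the deviations of same-numbered libraries correlated by -0.0042 to 0.17. With the replicate number as a block, Src was 0.011 in microglia, Src in oligodendrocytes passed the test (0.56, edgeR adjusted p = 0.0311), and no other call changed. Each group had 2 pools, and members with few UMIs in a type (Fgr outside macrophages, Lck outside T and NK cells, Blk everywhere) were limited by depth.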
